A study of Mus musculus with 28 samples.

Results

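Chromatin-bound RNA of E14 cells, a line of mouse embryonic stem cells (mESCs), was sequenced in 2 libraries, which were selected by their titles from the 28 samples of a series on the histone chaperone FACT. The cells grew in serum with leukaemia inhibitory factor, and neither a vector nor a knock-down is given for them. For each fraction, cells were lysed in mild detergent and spun through 25% sucrose, with α-amanitin (25 µM), an inhibitor of RNA polymerase II, kept in the buffers. The material of comparison was total RNA from 4 control RNA-seq libraries of the same line, with ERCC spike-ins, after transfection of a scramble shRNA vector, puromycin selection and depletion of ribosomal RNA. The 2 materials therefore differed in fraction, in library preparation, in vector and in selection. Their reads were also aligned with different versions of STAR, 2.4.1b for chromatin RNA and 2.5.1b for the controls. Whether reads with several matches were counted alike in both was not tested. All these differences cannot be told apart. In bulk RNA, fewer molecules per cell and fewer cells that hold a molecule cannot be told apart either.

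The chromatin libraries held 3441643 and 3393923 reads counted on genes, as raw counts, and were turned into counts per 1000000 counted reads (CPM). The control values were deposited on a like scale, divided by library size, and are also given in CPM. Genes with 10 or more counts in both libraries were kept, which left 4723 of 27179 genes. These were 4467 protein-coding genes, 111 small nucleolar RNAs (snoRNAs), 88 noncoding RNAs of other kinds, 10 snRNAs, 5 rRNAs, 15 pseudogenes, 15 genes of unknown type and 12 of no type. Of the 4723 genes, 4595 also had a value in the control table of 15384 genes, and 128 did not, 64 of them snoRNAs. A single read was worth 0.291 and 0.295 CPM in the 2 libraries, so that a gene at the minimum lay near 3 CPM. Both libraries form 1 group with no treated counterpart. The sources used here do not say whether they came from separate cultures.

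RNA that stays with chromatin after cell lysis includes transcripts still held by RNA polymerase and RNAs that work in the nucleus. Among the latter are the box C/D and H/ACA snoRNAs, which guide 2′-O-methylation and pseudouridylation of ribosomal RNA. Most mouse snoRNAs are processed from introns of host genes, and ribosomal RNA itself is cut from a long precursor, 45S, represented here by *Rn45s*. Because such short, mature RNAs can fill a library of chromatin RNA, protocols for nascent RNA often remove their cDNA with complementary oligonucleotides.

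The study lists 19 biotinylated DNA oligos, each made to remove the cDNA of 1 abundant RNA from its NET-seq libraries. The sources used here do not say whether they were also used for the 2 chromatin libraries, nor on which data they were chosen, so their targets are not an independent list. The targets are 15 box C/D snoRNAs, *Snora68* of the H/ACA class, the U3 snoRNA gene *Rnu3a*, *Rmrp*, the RNA of RNase MRP, and *Rn45s*. The oligos were 34 to 40 bases long, and all 19 matched the last bases of their gene, with 0 bases left between the match and the 3′ end. The match was full except in *Rn45s* (32 of 36 bases), *Snord49b* (33 of 34) and *Rnu3a* (37 of 38). To show how the oligos lie on their RNAs, 8 targets are printed in the sense of the RNA, 5′ to 3′, with the part matched by the oligo in capitals (mm10, which is GRCm38, from RefSeq).
Snord49a, chr11:62603460-62603521, plus strand: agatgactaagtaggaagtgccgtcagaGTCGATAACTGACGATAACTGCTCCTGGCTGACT
Snord65, chr11:62604530-62604586, plus strand: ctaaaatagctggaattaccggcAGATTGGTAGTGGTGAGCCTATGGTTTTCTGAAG
Snord49b, chr11:62603086-62603148, plus strand: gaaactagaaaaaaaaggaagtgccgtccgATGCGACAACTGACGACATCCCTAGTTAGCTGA
Snord2, chr16:23108953-23109020, plus strand: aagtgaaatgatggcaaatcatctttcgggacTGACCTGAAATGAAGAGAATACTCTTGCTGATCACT
Rnu3a, chr10:40258576-40258679, plus strand: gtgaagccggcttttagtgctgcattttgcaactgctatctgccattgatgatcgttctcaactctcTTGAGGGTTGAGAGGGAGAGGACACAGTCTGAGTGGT
Snord82, chr1:86356260-86356327, minus strand: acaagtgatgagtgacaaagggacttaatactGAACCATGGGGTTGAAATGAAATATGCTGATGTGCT
Snord32a, chr7:45127383-45127463, minus strand: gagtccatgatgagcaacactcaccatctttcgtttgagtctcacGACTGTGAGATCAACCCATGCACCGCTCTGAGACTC
Snora68, chr8:70895759-70895856, minus strand: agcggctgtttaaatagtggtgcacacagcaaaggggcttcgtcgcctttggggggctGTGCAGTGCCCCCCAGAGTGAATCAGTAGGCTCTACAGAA

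The direction of the oligos followed the strand of the gene on the chromosome. All 11 oligos against genes on the plus strand were antisense to the RNA, and all 8 against genes on the minus strand had the sense of the RNA. Read on the genome, all 19 listed oligos were thus the minus strand. A pair of them is given 5′ to 3′ to show this: the first is the reverse complement of the capitals of *Snord49a*, and the second repeats the capitals of *Snord82*.
oligo for Snord49a: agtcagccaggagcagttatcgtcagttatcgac
oligo for Snord82: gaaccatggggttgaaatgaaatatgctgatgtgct

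The 2 chromatin libraries were dominated by snoRNAs. Box C/D snoRNAs held 60.7% of the counted reads of library 1 and 58.8% of library 2 (77 genes), and H/ACA snoRNAs 3.00% and 1.88% (38 genes). Ribosomal RNA genes outside the mitochondrion held 13.8% and 12.7%, and noncoding RNAs of other kinds 13.8% and 14.3%. Most of the latter was the single gene *Gas5*, with 12.5% and 12.6% of all counted reads, whose row also spans snoRNA loci, as described below. Protein-coding genes of the nucleus took only 5.46% of the reads in library 1 and 9.24% in library 2, although they made up 21419 of the 27179 genes. Each gene was listed by its exons, so reads within the introns of messages are not part of these shares or of the levels below. The shares are therefore not the whole messenger content of the fraction. Exact binomial (Clopper-Pearson) 95% intervals were narrow, from 5.43 to 5.48% and from 9.21 to 9.27% for the protein-coding share, so the libraries differed in this share by far more than counting error, which is all that such intervals cover. The box C/D share was 59.7% ± 1.36 (mean ± SD, n = 2) and the protein-coding share 7.35% ± 2.67.

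**Figure D1:**
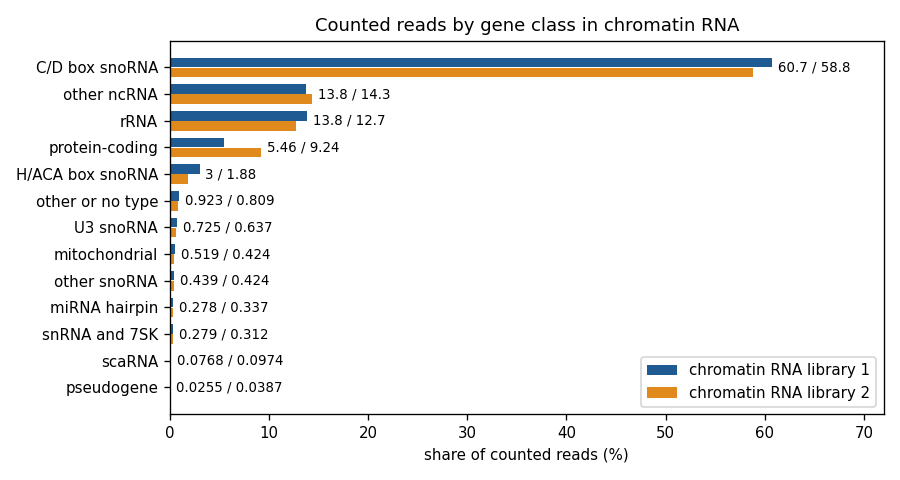
Share of counted reads (%, horizontal axis from 0) by gene class in chromatin RNA library 1 (blue) and library 2 (orange), with both values printed beside each pair of bars. Box C/D snoRNAs took 60.7 and 58.8%, and protein-coding genes 5.46 and 9.24%. Within the other noncoding RNAs, *Gas5* alone took 12.5 and 12.6%.

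Few genes carried most of the reads. The 3 highest genes, *Snord49a*, *Rn45s* and *Gas5*, held 46.2% and 46.4% of the counts, the 10 highest 69.9% and 67.3%, and the 30 highest 86.5% and 83.0%. *Snord49a*, a box C/D snoRNA, had 688267 and 719152 counts, which were 20.0% and 21.2% of all counted reads. Its control values were 2.99, 1.55, 3.05 and 2.33 CPM. *Rn45s*, at chr17:39829210-39848825, had 472277 and 429121 counts (137224 and 126438 CPM), against 51676, 41269, 36786 and 47064 CPM in the controls, whose ribosomal RNA had been depleted. Both chromatin libraries lay above all 4 controls for both genes, which are the defining markers of these libraries, but for *Rn45s* the log2 ratio was only 1.59, against 16.11 for *Snord49a*. Here and below the log2 ratio is the mean log2(value + 0.5) of the 2 chromatin libraries minus that of the 4 controls.

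All 19 oligo targets were among the 28 highest genes of chromatin RNA, with a median rank of 13, and together they held 65.9% and 62.4% of the counts. The 11 genes of the top 30 that were not targets were *Gas5*, *Snord96a*, *Snord55*, the gene with the identifier 100628626 and no symbol, *Snord57*, *Snord14e*, *Snord38a*, *Lars2*, *Snord37*, *Snord72* and *Snord118*, the U8 snoRNA. *Snord65* had 201526 and 130892 counts, *Snord82* 155557 and 112392, and *Snord49b* 133932 and 99948. These 3 were lower in library 2, and none of them has a row in the control table. *Snord2* had 25286 and 30450 CPM against 1.78 to 3.77 CPM in the controls, *Snord99* 25721 and 27329 against 1.78 to 4.76, and *Snord95* 21386 and 28594 against 3.27 to 4.13. Of the 12 targets with a control value, all were higher in both chromatin libraries than in any control, where the whole-table share of such genes was 1.81%. The highest control value of 9 of them was below 10 CPM.

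Among the other targets, *Snord68* reached 15941 and 14903 CPM, *Snord32a* 13041 and 15297, and *Snord87* 13466 and 10443, again with no control value. *Snord100* reached 10010 and 10820 CPM, *Snord42b* 5777 and 7198, *Snord83b* 6909 and 5914, *Snord110* 7349 and 5391, and *Snord47* 4534 and 3348. The 2 libraries agreed within a factor of 1.52 for every box C/D target. *Snora68* stood apart: it had 46127 counts in library 1 and 18475 in library 2, 2.46-fold fewer in CPM, and 1.63, 0.172, 0.897 and 0.821 CPM in the controls. *Rnu3a*, which helps to cut the ribosomal precursor, had 6942 and 6175 CPM against 1.97 to 12.4 CPM. *Rmrp* had 8895 and 12789 CPM against 2197, 1438, 1117 and 1816 CPM, so that it was abundant in both materials and its log2 ratio was 2.74.

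**Figure D2:**
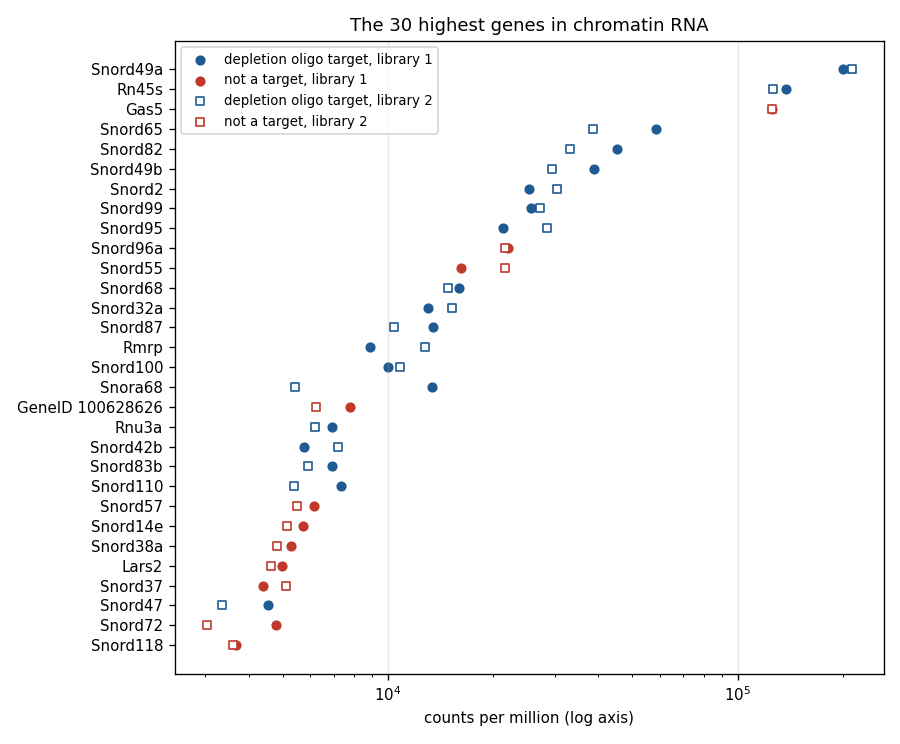
CPM (log axis) of the 30 highest genes of chromatin RNA, ordered by their mean. Filled circles are library 1 and open squares library 2. The 19 oligo targets are blue and the 11 other genes red, and *Snora68* shows the widest gap between the libraries, 13403 against 5444 CPM.

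*Gas5*, a noncoding host gene of several snoRNAs, was the third gene of the libraries, with 430505 and 426019 counts (12.5% and 12.6%) against 99.5, 96.6, 85.2 and 100.1 CPM in the controls. Its row is 2554 bases of exon in the deposited table. The exon at chr1:161035166-161037547 spans 5 snoRNA loci that RefSeq places between 161035394 and 161037049, and 0 of these 5 has a row of its own, whereas *Snord47*, which lies further downstream, has one. Counts on the snoRNAs and on the *Gas5* transcript were therefore not separable in this row. A second such gene was *5730408K05Rik* (1469 and 726 counts), whose exon holds *Snora57*. The noncoding hosts *Snhg1* (87 and 176 counts) and *Snhg12* (24 and 32), whose snoRNAs have rows of their own with reads, were far lower. *Snora24* has a row of its own inside an exon of another gene and was at 0 in both libraries.

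The box C/D class was almost complete in chromatin RNA: 71 of its 77 genes passed the minimum, against 32 of 38 H/ACA genes and 9 of 9 scaRNAs, which guide modification of snRNAs in Cajal bodies. Over the box C/D genes of at least 40 bases that passed (70), the median was 1497 CPM in library 1 and 1266 in library 2, and over the 32 H/ACA genes it was 323 and 306. The ranges overlapped, from 11.8 to 211894 CPM and from 6.78 to 13403 CPM. Box C/D genes had a median length of 68 bases and H/ACA genes 119. The D box letters CTGA stood within the last 12 bases of the RNA in 73 of 76 box C/D genes (96.1%) and in 2 of 38 H/ACA genes (5.26%). The C box letters TGATGA stood within the first 15 bases in 23 of 76 (30.3%) and 0 of 38. The letters ACA stood 3 bases from the end in 27 of 38 H/ACA genes (71.1%), as in *Snora68* above, and in 3 of 76 box C/D genes.

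Nearly all of these snoRNAs lie inside other genes: 69 of 76 box C/D and 37 of 38 H/ACA genes were within the span of a longer gene on the same strand. These box C/D and H/ACA genes had 75 such hosts in all, of which 22 encode ribosomal proteins. Of the 60 hosts that could be compared with total RNA, 14 were higher and 18 lower on the protein-coding scale described below (median log2 ratio 0.22). Over all 4595 genes compared, 22.7% were higher and 8.51% lower on that scale. SnoRNAs of 1 host were not alike. In 21 hosts with more than 1 snoRNA above the minimum, the highest exceeded the lowest by a median of 4.45-fold (range 1.10 to 137). The host *2410006H16Rik* carries *Snord49a*, *Snord65* and *Snord49b*, which together had 297452 and 279910 CPM, while its own exons had 33 and 56 counts. Within *Eif4a2*, a translation factor gene, *Snord2* exceeded *Snora81* by 137-fold. Within *Snhg12*, *Snord99* exceeded *Snora44* by 84.1-fold, and within *Ncl*, which encodes nucleolin, *Snord82* exceeded *Snora75* by 59.0-fold. The box C/D gene *Snord95* and its neighbour *Snord96a* in *Rack1* differed by only 1.14-fold.

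Small RNAs with further identical copies in the genome were mostly near 0, apart from the U3 genes *Rnu3b3* (744 and 457 counts) and *Rnu3b1* (314 and 198). Of box C/D genes with a single copy, 69 of 73 passed the minimum, against 1 of 3 with more copies (*Snord116*, 58 and 40 counts). Of snRNA and 7SK genes with a single copy, 5 of 5 passed, against 1 of 6 with more: *Rnu1a1*, a U1 gene, had 94 and 77 counts, *Rnu2-10* 8 and 8, *Rnu6* 3 and 1, and the U1 genes *Rnu1b1*, *Rnu1b2* and *Rnu1b6* were at 0. All 32 rRNA genes with copies were at 0 in both libraries. The single-copy *Rnu12*, which serves the minor spliceosome, had 1785 and 1215 counts, *Rnu5g* 1978 and 949, and *Rnu11* 575 and 522. The sources used here do not say how reads that match several places were counted, so the level of U1, U2 or U6 RNA on chromatin could not be read from these counts.

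Products of RNA polymerase III were also present. *Rn7sk*, which holds the elongation factor P-TEFb in an inactive complex, had 1485 and 2301 CPM against 10686, 8522, 7131 and 9009 CPM in the controls. *Rpph1*, the RNA of RNase P, had 271 and 336 CPM against 8609, 6662, 5088 and 7210. Both were thus below all controls in CPM of all reads (log2 ratios -2.24 and -4.49), unlike *Rmrp*. Relative to shared protein-coding reads, a scale described below, *Rn7sk* was above them (1.18) and *Rpph1* still below (-1.07). The Y RNA *Rny1* had 2243 and 2237 counts, *Rny3* 341 and 298, and the vault RNA *Vaultrc5* 136 and 127, with no control value. *Bc1* had 2 and 2.

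Of 644 microRNA hairpin genes, 22 passed the minimum, and 434 were at 0 in both libraries. These are counts on the hairpin gene and do not tell precursor from mature RNA. The highest was *Mir5099* (7358 and 9496 counts), of which 27 bases match *Rn45s* at 96.3% identity, and whether its reads came from the ribosomal precursor was not tested. Next were *Mir182* (366 and 230), *Mir1949* (323 and 212), *Mir677* (242 and 230) and *Mir3068* (257 and 193). The largest group with 1 shared seed, bases 2 to 8 in capitals below, came from 5 genes of the miR-17 family, with 14 to 115 counts; they are shown because no other seed was shared by more than 2 genes that passed. Mature sequences are from RefSeq.
mmu-miR-17-5p: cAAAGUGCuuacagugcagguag
mmu-miR-20a-5p: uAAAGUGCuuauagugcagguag
mmu-miR-20b-5p: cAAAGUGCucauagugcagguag
mmu-miR-93-5p: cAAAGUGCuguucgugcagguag
mmu-miR-106b-5p: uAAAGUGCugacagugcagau

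*Mir17* had 60 and 115 counts, *Mir20a* 70 and 101, *Mir20b* 14 and 27, *Mir93* 17 and 16, and *Mir106b* 19 and 26. Of the miR-290 cluster, which is typical of mESCs, the table holds 7 hairpin genes. *Mir290a* had 73 and 89 counts (21.2 and 26.2 CPM) against 3.95, 2.75, 0.718 and 2.74 CPM in the controls, and the other 6 were at 0. All 6 lie in an exon of another gene in the table and *Mir290a* does not, and the part of this overlap in the zeros was not tested, so that the depth sets no limit on their level. Its 3p product is shown with the seed again in capitals.
mmu-miR-290a-3p: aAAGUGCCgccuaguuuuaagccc

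The mitochondrial genome showed a sharp split. *COX2*, *ATP8*, *ATP6*, *COX3* and *ND4L* had 0 counts in both chromatin libraries, and *ND3* had 3 and 2, whereas the controls held 19.3 to 3494 CPM of these 6 genes. Each of the 6 is also present in the nuclear genome at 100% identity over at least 99.1% of its length, in 1 stretch of chromosome 1. The 9 other mitochondrial genes, which have no whole nuclear copy at that identity, had 127 to 8609 counts. *COX1*, which encodes a subunit of cytochrome c oxidase and has a nuclear match of 97.6% identity, had 311 and 534 CPM against 6253, 5441, 5434 and 6102 in the controls. The mitochondrial rRNAs were higher in chromatin RNA in CPM: *Rnr1* had 1699 and 1165 CPM against 37.3 to 49.4, and *Rnr2* 2501 and 1920 against 308 to 430. Mitochondrial RNA was thus present in the fraction, and all 5 genes at 0 were among the 6 with an identical nuclear copy. The part of such copies in the zeros was not tested, nor was whether the 2 tables treated reads from them alike. *COX3*, for one, had 0 counts in both chromatin libraries against 3091 to 3494 CPM in the controls.

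Messenger RNAs of mESC regulators marked the cells. Of 21 ES cell markers, 20 passed the minimum, among them *Sox2* (101 and 226 counts), *Pou5f1* (41 and 45), *Nanog* (32 and 40) and *Esrrb* (50 and 106). *Dppa3* had 0 and 1. Markers of other cells were near 0 and 0 of them passed: the 7 neural markers summed to 31 and 32 counts, the 7 fibroblast markers to 13 and 15, the 5 endoderm markers to 11 and 14, the 5 trophectoderm markers to 16 and 9, and the 4 mesoderm markers to 3 and 6. *Neurog2*, *Lum*, *Afp*, *T* and *Mixl1* were at 0 in both libraries.

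The comparison with total RNA depended on the scale. In CPM of all reads, a gene was counted as higher or lower when its absolute log2 ratio was above 1 and no chromatin library overlapped a control. By this rule 83 of 4595 genes (1.81%) were higher and 4392 (95.6%) lower, and the median over protein-coding genes was -3.05. All 26 box C/D and all 21 H/ACA snoRNAs compared were higher, with medians of 10.75 and 6.91. When both tables were scaled to the sum over shared protein-coding genes, the ratios of these genes rose by 3.32, and 1044 genes (22.7%) were higher and 391 (8.51%) lower. Scaling by trimmed means of M values (TMM) gave 642 higher and 688 lower. The messages are described below on the protein-coding scale, in reads per 1000000 protein-coding reads (protein-coding CPM), and every direction given on it is relative to the shared messages. The 2 tables were normalised separately, and with 2 libraries against 4 the smallest two-sided p of an exact permutation test is 0.0667, so no test was run. The genes that passed the minimum were also selected by their chromatin counts, which favours genes high in that material.

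**Figure D3:**
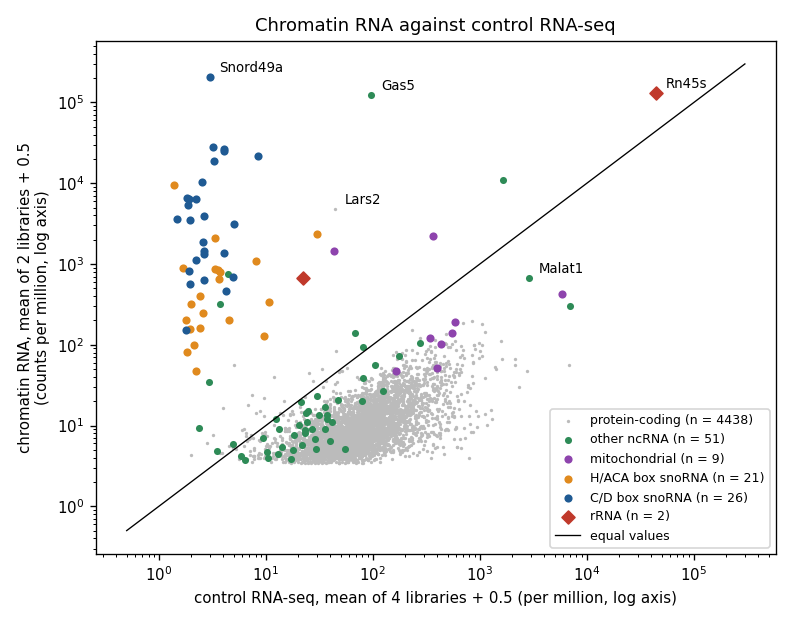
Mean value of the 4 control libraries (horizontal, CPM, log axis, plus 0.5) against the mean of the 2 chromatin libraries (vertical, CPM, log axis, plus 0.5) for protein-coding genes (grey), other noncoding RNAs (green), mitochondrial genes (purple), H/ACA (orange) and box C/D (blue) snoRNAs and rRNAs (red). All 26 box C/D and 21 H/ACA snoRNAs compared lie above the line of equal values, while 9 of 4438 nuclear protein-coding genes were counted as higher and 4326 as lower on this scale.

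Long noncoding RNAs known to stay in the nucleus were higher in chromatin RNA relative to messages. Of 23 such genes in the table, 13 passed and all 13 were counted as higher on the protein-coding scale, where 22.7% of all 4595 genes were. Their median log2 ratio was 1.91, against 0.31 over all 4595 genes. The high share was not particular to the list. Of all 51 noncoding RNAs of other kinds (microRNA hairpins and scaRNAs apart), which include members of the list, 47 were higher (median 2.11). Without the minimum, all 21 genes of the list with a control value had a ratio above 0 (median 1.46), against a median of -0.41 over all 15384 genes. *Malat1*, which resides in nuclear speckles, had 9413 and 8833 protein-coding CPM against 4290, 3431, 3372 and 3900 in the controls, and *Neat1*, the scaffold of paraspeckles, had 150 and 160 against 40.02 to 62.95. *Kcnq1ot1*, which silences an imprinted domain, had 1164 and 1580 against 353 to 380, and *Rian* 2264 and 1669 against 81.7 to 99.1. *Xist* had 155 and 204 against 25.9 to 34.4, and the mESC transcript *Lncenc1*, lowest in the list at a log2 ratio of 1.07, 310 and 383 against 155 to 178. In each of these 6 both chromatin libraries lay above all controls on this scale. In CPM of all reads only *Rian* stayed above (log2 ratio 1.02), and *Malat1*, *Neat1* and *Kcnq1ot1* were at -2.13, -1.66 and -1.50.

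Messages for ribosomal proteins and histones were low. Of 86 ribosomal protein genes in the table, 68 were compared, of which 54 were lower, 2 higher and 12 neither, with a median log2 ratio of -1.84 and a range of -3.64 (*Rpl19*) to 2.69 (*Rpl34*). The share of protein-coding genes that were lower was 8.53% and the share that were higher 20.6%. Replication-dependent histones, whose messages end in a stem loop and have no poly(A) tail, gave 25 lower, 0 higher and 12 neither of 37 compared (median -1.64). Both lists stayed low without the minimum (medians -1.86 over 85 genes and -2.12 over 66, against -0.38 over 14052 protein-coding genes). *Hist1h2ae*, an H2A gene, had the lowest ratio of all messages, with 58.7 and 41.5 protein-coding CPM against 1094, 1058, 943 and 1028 in the controls, a log2 ratio of -4.37. *Hist4h4*, the highest of the histones, had 262 and 118 against 126 to 145, and its libraries overlapped the controls. Both lists hold families of near-identical genes and pseudogenes, between which the counting could have split reads, possibly not alike in the 2 tables. The part of this in the ratios was not tested.

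Messages of housekeeping proteins were also low as a list, though not in every member. Of 15 housekeeping messages compared, 8 were lower, 1 higher and 6 neither (median -1.20), where 8.53% of protein-coding genes were lower and 20.6% higher. Without the minimum the median was -1.87 over 19 genes, 3 of them above 0, against -0.38 over 14052 protein-coding genes. *Eef1a1*, the main elongation factor of translation, fell from 9392, 8866, 8764 and 9047 in the controls to 897 and 670 in chromatin RNA (log2 ratio -3.54). *Actb* had 785 and 743 against 2701 to 2853, and *Gapdh* 150 and 166 against 639 to 678. *Tubb5*, a tubulin gene, was the 1 counted as higher, with 299 and 255 against 123 to 135 (log2 ratio 1.09), although in CPM of all reads it was lower like the other 14. Among the lowest protein-coding genes were *Hist1h2ae*, *Hnrnpf*, *Eef1a1*, *Rpl19*, *Ptma*, *Rps23*, *Hist1h2ai*, *Rpsa* and *Hist1h3e*, with log2 ratios of -4.37 to -3.37. They had 10 to 210 counts per chromatin library. The 5 lowest of other gene types were *Gm8203* (-3.42), whose type is unknown, the gene with the identifier 100861774 and no type (-2.48), and the pseudogenes *Gm11478* (-2.64), *Gm12669* (-2.25) and *Gm9794* (-2.20). Of 15 pseudogenes compared, 8 were lower and 3 higher (median -1.63). Here too the counting could have split reads between near-identical genes and pseudogenes, possibly not alike in the 2 tables. The part of this in the low ratios was not tested.

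Markers of mESCs were spread over both directions. Of the 20 compared, 10 were higher on the protein-coding scale, 3 lower and 7 neither (median 0.85, without the minimum 0.51). Over all protein-coding genes compared, 20.6% were higher and 8.53% lower. The signalling gene *Fgf4* was highest, with 358 and 587 against 87.5 to 103 (log2 ratio 2.25), and *Sox2* had 539 and 721 against 187 to 219 (1.65). The pluripotency factor *Pou5f1* had 219 and 144 against 343 to 420 (-1.08), and *Dppa5a* was lowest, with 240 and 207 against 714 to 767 (-1.75). *Nanog* overlapped, with 171 and 128 against 159 to 178. *Esrrb* had 267 and 338 against 123 to 136 (1.20). In CPM of all reads all 20 were lower.

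The genes of FACT and of transcript elongation lay near the middle. Of 16 compared, 3 were higher, 1 lower and 12 neither (median 0.19). For this and the next lists, the shares over all protein-coding genes compared were 20.6% higher and 8.53% lower. *Ssrp1* had 246 and 198 against 294 to 328 (log2 ratio -0.48), and *Supt16*, which encodes the other FACT subunit, 475 and 389 against 402 to 436 (0.038). *Cdc73* of the PAF complex was highest at 1.34 and *Tcea1*, which rescues stalled polymerase, lowest at -1.32, and in CPM of all reads all 16 were lower. Of 7 immediate early genes compared, 3 were higher, 2 lower and 2 neither, from *Egr1* at 3.27 (14 and 29 counts) to *Btg2* at -2.17. Of 9 imprinted genes, 5 were higher, 1 lower and 3 neither (median 1.91, at *Kcnq1ot1*, with *Peg10* lowest at -1.27), but without the minimum the median over 23 was -0.62. Of 26 snoRNA hosts in a chosen list, 9 were higher, 7 lower and 10 neither (median 0.39), from *Rpsa* at -3.37 to *Gas5* at 13.78. Over the 60 hosts found by position, 14 were higher and 18 lower, where 22.7% and 8.51% of all genes compared were. Of the 75 hosts found by position, 22 encode ribosomal proteins, whose messages were mostly lower.

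**Figure D4:**
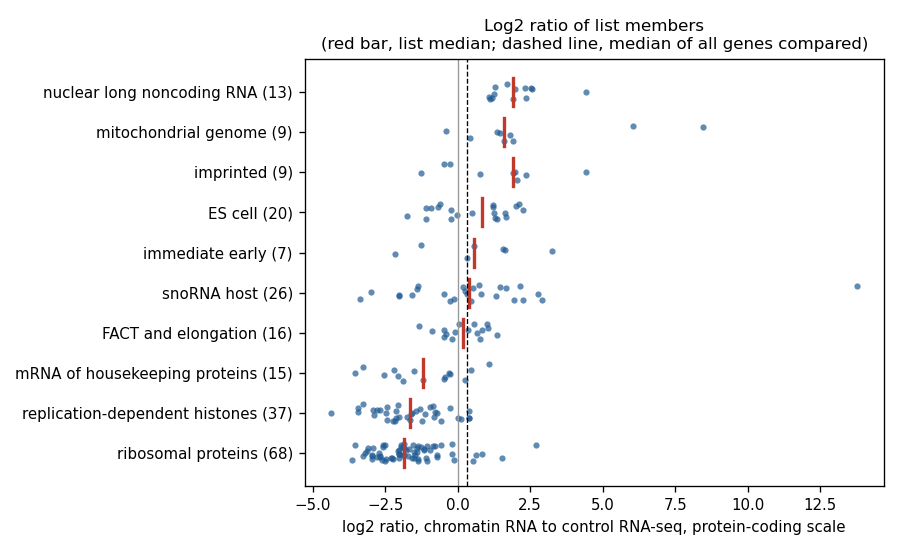
Log2 ratio of chromatin RNA to control RNA-seq on the protein-coding scale (horizontal axis) for each compared member (points) of 10 gene lists, with the number compared in brackets, the list median as a red bar and the median of all 4595 genes (0.31) as a dashed line. All 13 nuclear long noncoding RNAs lie above 1, and 54 of 68 ribosomal protein genes were counted as lower.

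The highest protein-coding gene was *Lars2*, which encodes the mitochondrial leucyl-tRNA synthetase and lies at chr9:123366940-123462664. It had 17149 and 15719 counts (4983 and 4632 CPM) against 39.6, 41.1, 42.0 and 51.7 CPM in the controls, and it alone held 9.16% and 5.02% of the protein-coding reads. Its exons had no match to the 5868 bases of the *Rn45s* row, to the mitochondrial rRNAs or to an abundant small RNA. Ribosomal sequence outside these rows was not searched, so whether the *Lars2* reads came from ribosomal RNA was not tested. Far below it came *Shisa8* with 57.8 and 53.0 CPM against 2.72 to 6.37, *Camk2n2* with 13.4 and 18.6 against 2.58 to 5.06, and *Gcfc2* with 38.6 and 40.7 against 9.44 to 12.9. *En2*, a homeobox gene, had 27.6 and 19.2 CPM against 4.22 to 9.69. *Fam89b*, *Tigd5*, *Aimp2*, *Rras* and *Wnt9a*, a Wnt ligand, completed the 10, with log2 ratios of 1.44 to 0.80 in CPM of all reads. The 10 were chosen by this ratio among genes with a mean of at least 10 CPM and no overlap with the controls. In all, 9 of 4438 nuclear protein-coding genes (0.203%) had a ratio above 1 and no overlap.

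Longer genes had higher ratios. In 5 classes of 889 protein-coding genes each by exon length, the median log2 ratio on the protein-coding scale was -0.25 in the shortest (312 to 2218 bases), then 0.16, 0.32 and 0.42, and 0.57 in the longest (6090 bases and more). Of the shortest class 24.5% of genes were lower, and of the longest 2.81%, while 14.3% and 28.5% were higher. By genomic span, introns included, the medians rose from 0.037 to 0.52. Across the 4445 genes, which are not independent, the ratio had a Pearson r of 0.29 and a Spearman rho of 0.28 with exon length, and 0.21 and 0.19 with span. The chance of passing the minimum also depended on length, from 15.1% of the shortest to 54.4% of the longest of 5 such classes of the 14052 protein-coding genes in both tables. Without the minimum, the medians over those 14052 genes ran from -1.16 to 0.08. In the shortest of these classes 975 of 2811 genes had 0 counts in a library, against 195 of 2811 in the longest. The part of depth in this range was not tested. Genes of 1 exon split by kind. The 35 histone genes had a median of -1.64, with 0 higher and 24 lower. The other 54 genes of 1 exon had a median of 0.86, with 24 higher and 1 lower. Over all protein-coding genes compared, 20.6% were higher and 8.53% lower.

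**Figure D5:**
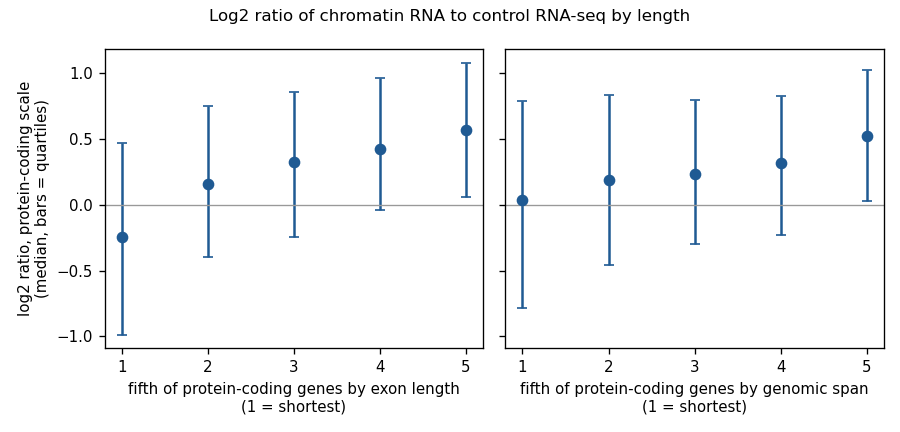
Median log2 ratio of chromatin RNA to control RNA-seq on the protein-coding scale (points, bars from the lower to the upper quartile) in 5 equal classes of 4445 protein-coding genes by exon length (left) and genomic span (right). The medians rose from -0.25 to 0.57 with exon length and from 0.037 to 0.52 with span, with wide overlap of the quartiles.

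The ratio also fell with the level in total RNA, with a Pearson r of -0.62 and a Spearman rho of -0.56 across the same 4445 genes. The control level is part of the ratio and low genes had to be high on chromatin to pass, so this is a description of the genes kept. The levels themselves, on the protein-coding scale, had a Pearson r of 0.60 and a Spearman rho of 0.60 between the 2 materials.

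The chromatin libraries ranked genes alike but were not copies. Over the 4723 genes the Spearman rho of the counts was 0.82 and the SD of the log2 difference 0.58, where counting error alone would give 0.42, and chi-square was 21.7 per degree of freedom. Over the 111 snoRNAs rho was 0.99, with an SD of 0.32. Protein-coding genes were higher in library 2 by a median log2 difference of 0.75 in CPM, in parallel with their larger share there. With each library scaled to its reads on the 4467 protein-coding genes kept, the median difference was 0.03. Among 173 genes with at least 200 counts in both, 13 differed by more than 1 on the log2 scale in CPM, 2 of them lower in library 2. Of the 13, 8 were protein-coding. Of the 39 protein-coding genes with at least 200 counts in both, 0 differed by more than 1 once each library was scaled to its reads on those 39. Their median log2 difference was then 0.51. The 5 that differed most in CPM were *Snora68* (-1.30), *Xpo1*, the nuclear exporter (217 and 505 counts, 1.24), *Kcnq1ot1* (1.20), *Scarna10* (364 and 824 counts, 1.20) and *Trip12*, a ubiquitin ligase (223 and 498, 1.18).

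Chromatin RNA was set beside the peaks of SSRP1, which were called by the authors and assigned to genes. Of 5940 protein-coding genes with a SSRP1 peak, 38.5% passed the minimum, against 14.1% of 15492 without. Among those compared, the 2279 genes with a peak had a median of 34.5 protein-coding CPM per kilobase of exon (quartiles 21.1 and 63.4), and the 2166 without a peak 29.8 (18.6 and 48.4). In total RNA the medians were 28.3 and 22.6 on the same scale, so that genes with a peak were higher in both materials. The log2 ratio had medians of 0.25 and 0.31, and 10.4% of genes with a peak were lower in chromatin RNA against 6.51% without. Gene lengths were similar, with median exon lengths of 3767 and 3830.5 bases.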

How the data were processed

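Chromatin RNA was deposited by the authors as raw counts per gene (STAR 2.4.1b and featureCounts on mm10, per the labels), and the control RNA-seq (STAR 2.5.1b) as a deposited signal: counts of genes above 1 CPM, scaled by the authors to library size with TMM in edgeR. The control values were set to whole reads per library (4602278 to 6680919 reads). The counting of reads with several matches, and of strand, was not given in the sources used here. Counts were scaled to CPM, genes needed 10 counts in both chromatin libraries, and 0.5 was added before log2. No test was run across the separately normalised tables. Sequences and copies were read from RefSeq (GRCm38.p6) with BLAST 2.17.0, and TMM factors came from edgeR 4.0.16. Calculations used Python 3.11.15 and were tested on simulated data.

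Genes named were the oligo targets, the 10 highest genes of chromatin RNA, the 10 protein-coding and 5 other genes at each end of the log2 ratio in CPM among those with a mean of at least 10 CPM in either material and no overlap, the ends and median of each list, chosen markers, and the 5 genes that differed most between the libraries. Other genes were named after their values were seen. A gene that this rule names is not reported here. SSRP1 peaks were called by the authors on both replicates together. The members and lists were chosen with earlier results of these data known. Alternatives were other scalings, minimums and pseudocounts, and leaving out libraries.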

Additional observations from a re-analysis of the deposited data

Results flagged for a closer look

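Among the 4 control libraries, 2 of 82 named genes screened, both snoRNAs, had a single library far from the others by Dixon's criterion, which chance meets in about 1 of 20 groups. *Snord95* was 4.13 CPM in control 3, against 3.27 to 3.40 in the others. *Snord96a* was 10.5 CPM in control 1, against 6.70 to 7.23.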

How the results depend on the processing

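No paired analysis was possible because the chromatin and control libraries were separate preparations that no label pairs. Scaling decided the direction of most genes. With both tables scaled to shared protein-coding genes, the median log2 ratio was 0.28 for protein-coding genes, 2.11 for other noncoding RNAs, 1.61 for mitochondrial genes, 14.27 for box C/D and 10.44 for H/ACA snoRNAs, with 1044 genes higher and 391 lower. With TMM scaling these were -0.067, 1.75, 1.26, 13.72 and 9.84, with 642 and 688 genes. Scaling to all shared genes gave 10.96 and 7.12 for the snoRNA classes. A pseudocount of 0.1 gave 11.10 and 7.18, and of 2 gave 9.95 and 6.21. A minimum of 50 counts left 572 genes lower, and of 1 count 11793, with -1.86 for other noncoding RNAs. Leaving out 1 library gave 10.51 to 10.93 for box C/D, 6.62 to 7.04 for H/ACA, -3.42 to -2.69 for protein-coding, -1.64 to -0.81 for other noncoding and -2.00 to -1.52 for mitochondrial genes, 80 to 84 genes higher and 4280 to 4423 lower.

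The longest class of genes exceeded the shortest by 0.75 in median log2 ratio in CPM of all reads, and by 0.46 with genomic span. On the protein-coding scale the difference by exon length was 0.81. With a minimum of 200 counts the libraries had a Spearman rho of 0.96 and an SD of 0.50. The remaining alternatives were chosen after seeing the data. Without a minimum the longest and shortest classes by exon length differed by 1.24 on the protein-coding scale, with more genes at 0 counts in the shortest class. The list medians were then -0.30 for FACT and elongation and -0.62 for imprinted genes, against -0.41 over all genes. Scaling to nuclear protein-coding genes without *Lars2* gave 1196 genes higher and 341 lower.

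Named genes counted as lower in CPM that turned positive on the protein-coding scale, with the TMM value second where it turned too, were *Esrrb* (1.20, 0.85), *Fgf4* (2.25, 1.90), *Lncenc1* (1.07, 0.73), *Kcnq1ot1* (1.91, 1.56), *Cct6a* (0.45, 0.11), *Rn7sk* (1.18, 0.83), *Tubb5* (1.09, 0.74), *Junb* (0.57, 0.22), *Rtf1* (0.35, 0.0058), *Cdc73* (1.34, 0.99), *Hist4h4* (0.40, 0.058), *ND6* (1.61, 1.26), *Sox2* (1.65, 1.30), *Malat1* (1.29, 0.94), *Neat1* (1.70, 1.35), *Xpo1* (1.14, 0.80), *Supt16* (0.038) and *Trip12* (0.10). *Xist* (2.53), *Egr1* (3.27) and *Rpl34* (2.69), negative but not counted as lower in CPM, turned positive on that scale too. Over all named genes and alternatives, 847 values kept within the spread, 234 moved beyond it and 34 of genes counted as lower turned. The cause of each change beyond the scaling itself was not tested. Depth limited messages most: those at the minimum of 10 counts rest on few reads.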
